A study of Mus musculus with 15 samples.

Results

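The mitosis genes examined here are 46 mouse genes whose products drive entry into mitosis, build and police the spindle, package chromosomes or divide the cell. They were chosen by name, and all 110 probe sets annotated to 1 of them and to no other gene were read on all 15 arrays of the series. A probe set naming a listed gene together with others (1 case) was left out. Of the 46 genes, 45 had such a probe set in the annotation used and all 45 passed the filter on low signals, out of 13160 genes tested on the array, while Ccnb1 was not analysed here. Each gene is described by its brightest probe set on average, and 12 of the 45 are described by a probe set whose type can also bind related transcripts. RNA came from B cells of AM-14 mice, which carry a transgenic B cell receptor that binds self IgG, and was measured on Affymetrix arrays as MAS5 signals, a linear brightness per probe set. The 15 arrays form 5 groups of 3. They are cells given F(ab')2 goat antibody to mouse IgM (anti-IgM), which crosslinks the B cell receptor, cells given the phosphorothioate oligodeoxynucleotide CpG 1826 (CpG), a ligand of TLR9, cells given PL2-3, which the labels describe as a chromatin immune complex, cells labelled as given anti-IgM together with CpG (anti-IgM+CpG), and cells kept in media alone. All groups carry the AM-14 receptor. The labels give neither doses nor times, and nothing in them tells separate cultures or animals from repeats of the same cells, so p-values measure only the spread between these arrays.

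Cells enter mitosis when cyclin-bound CDK1 is switched on by CDC25 phosphatases, helped by the PLK1 and Aurora kinases. The spindle checkpoint then holds the cell until every kinetochore is attached, after which the anaphase-promoting complex with CDC20 triggers destruction of cyclin B and securin. Most of these genes are transcribed in G2 and M phase, many through the DREAM and B-MYB-FOXM1 complexes that act at promoter elements called CHR and CCAAT boxes, so their RNA is low in resting B cells and abundant in cycling cells.

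The level of the mitosis genes differed widely between arrays of the same group. Relative to each gene's mean over the 15 arrays, the median of the 45 genes was -0.17, 0.18 and -0.41 on the anti-IgM arrays (log2 of signal plus a pseudocount of 75.2), -0.25, -0.15 and -0.40 with CpG, and -0.42, -0.34 and -0.52 with PL2-3. It was 1.08, -0.85 and -0.59 with anti-IgM+CpG, against 0.54, 0.43 and 1.92 in media, so media replicate 3 and anti-IgM+CpG replicate 1 stood above every other array. Media replicate 3 held the highest of the 15 signals in 41 of the 45 genes, compared with 19.4% of all genes tested. Its signal was more than 2 times the mean of media replicates 1 and 2 in 35 genes (7.58% of all genes), with a median ratio of 2.71 for the 45 genes and 1.03 for all genes, and extremes of 0.894 for Foxm1 and 5.50 for Kif22. On anti-IgM+CpG replicate 1 the signal was more than 2 times the mean of replicates 2 and 3 in 40 genes (9.39% of all genes), with a median ratio of 3.77 and extremes of 0.544 for Tpx2 and 9.18 for Bub1. The genes highest elsewhere were Bub3 and Pttg1 on anti-IgM+CpG replicate 1 (5.62% of all genes were highest there), Tpx2 on PL2-3 replicate 2 and Foxm1 on media replicate 2. In RNA of whole cultures, fewer dividing cells and less mitotic RNA per cell cannot be told apart.

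**Figure D1:**
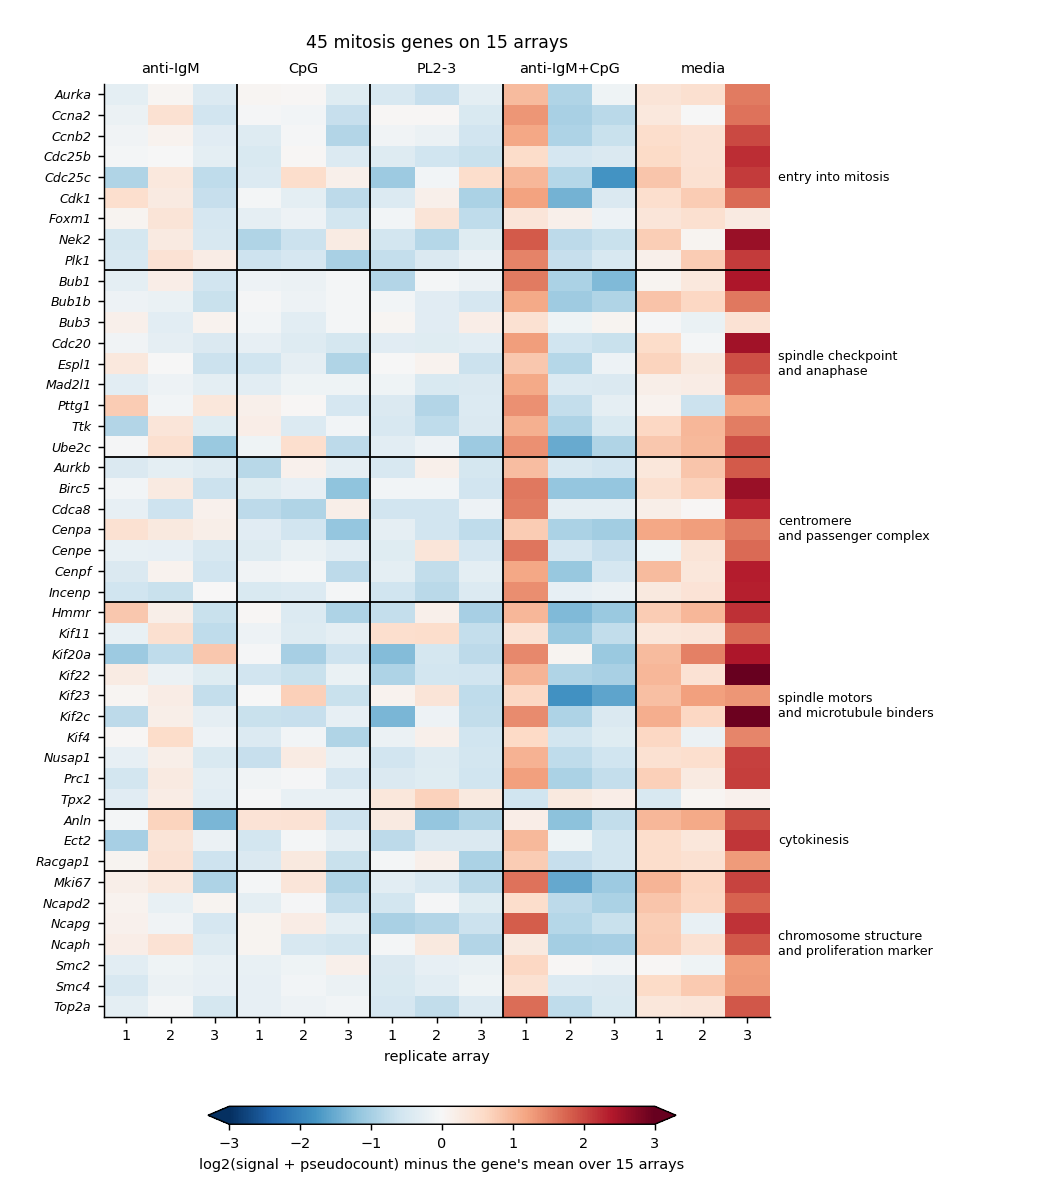
The map shows each of the 45 genes (rows, grouped by role) on each of the 15 arrays (columns, by group and replicate), as log2 of the signal plus pseudocount minus the gene's mean over the arrays, red above and blue below that mean. The columns of anti-IgM+CpG replicate 1 and media replicate 3 are red from top to bottom apart from a few genes such as Tpx2, with array medians of 1.08 and 1.92.

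Several other measures set arrays apart. Xist, which coats the silenced X in females, read 321 to 589 on the 3 anti-IgM+CpG arrays and 4252 to 15543 on the other 12. Per the labels, replicates 1 and 2 were labelled with an Enzo kit and replicate 3 with an Ambion kit. The 5' to 3' ratio of the beta-actin controls was 0.105 to 0.193 on the anti-IgM+CpG arrays, against 0.335 to 0.747 on the 8 other Enzo arrays and 0.108 to 0.201 on the 4 other Ambion arrays. Every result that uses anti-IgM+CpG rests on these arrays, and a labelling term read from these ratios is called actin-based below.

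No mitosis gene rose in any stimulated group compared with media, and all that passed the test fell, except that Tpx2 with PL2-3 (0.72) and Tpx2 (0.65) and Bub3 (0.65) with anti-IgM+CpG rose when arrays were shifted to the same median, and Tpx2 with PL2-3 (0.72) after quantile normalization. The words rose and fell are used of genes with a limma p under 0.05 after adjustment over all genes tested. Of all genes 10.1% rose with anti-IgM, 13.1% with CpG, 12.4% with PL2-3 and 17.2% with anti-IgM+CpG. With anti-IgM 11 of the 45 genes fell, where 9.32% of all genes fell, and with CpG 19 fell, where 16.9% of all genes did. With PL2-3 24 fell (13.5% of all genes), and with anti-IgM+CpG 15 fell (24.8% of all genes). The median log2 change of the 45 genes was -1.16 with anti-IgM, -1.29 with CpG, -1.35 with PL2-3 and -1.11 with anti-IgM+CpG, where the medians of all genes were -0.13, -0.21, -0.10 and -0.29 in the same order. The change was below 0 in 44, 45, 44 and 43 of the 45 genes. These comparisons share the 3 media arrays, so they do not support one another. All 3 signals lay below all 3 media signals in 30 genes with anti-IgM (17.4% of all genes), 36 with CpG (24.6%), 36 with PL2-3 (19.2%) and 6 with anti-IgM+CpG (31.4%). The genes that fell in all 4 comparisons were 6 of 45, where 6.09% of all genes did so, namely Cdc25b, Cenpa, Kif22, Kif2c, Ncapd2 and Smc4. Another 13 fell in none, where 69.5% of all genes fell in none, among them Cdk1, Ccna2, Cdc20, Bub1 and Bub3.

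Media replicate 3 carried a large share of these falls. Without it, the change of all 45 genes was higher in each of the 4 comparisons, and the medians were -0.53 with anti-IgM, -0.69 with CpG, -0.82 with PL2-3 and -0.48 with anti-IgM+CpG. The array thus accounted for 54.4%, 46.7%, 39.3% and 56.8% of the median change. The medians of all genes also moved toward 0 without it, from -0.13, -0.21, -0.10 and -0.29 to -0.07, -0.15, -0.05 and -0.22. The direction was kept in most mitosis genes, with 41, 43, 43 and 39 of 45 still below 0. Most calls ended. With anti-IgM only Smc4 remained called (5.36% of all genes fell in that fit), with CpG Cenpa and Smc4 (11.1%), with PL2-3 Cdc25b, Cenpa and Smc4 (8.94%), and with anti-IgM+CpG Cenpa, Kif23, Smc4, Ncapd2 and Ncaph (18.2%). The other 2 media arrays were themselves high: both lay above all 9 anti-IgM, CpG and PL2-3 arrays in 27 of the 45 genes, compared with 15.0% of all genes.

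Leaving out arrays on the other side moved the counts as well. Without anti-IgM+CpG replicate 1, 28 genes fell with anti-IgM, 34 with CpG, 35 with PL2-3 and 39 with anti-IgM+CpG (11.2%, 18.9%, 15.5% and 22.9% of all genes). The medians of the first 3 comparisons were unchanged by this, and that with anti-IgM+CpG was -1.70. Without both outlying arrays, 7, 16, 21 and 30 genes fell (7.73%, 13.5%, 11.8% and 17.7% of all genes), and Tpx2 rose with PL2-3 by 0.71 ± 0.23 (SE, limma adjusted p = 0.0336, 11.2% of all genes rose). Both arrays were left out after seeing their high mitosis signals, so these calls are not independent of the values tested. Within the Enzo arrays alone, 2 per group, the median difference from media was -0.51 with anti-IgM, -0.70 with CpG, -0.95 with PL2-3 and -0.38 with anti-IgM+CpG, and 41, 43, 43 and 31 of the 45 genes were lower. All genes tested had medians of -0.05, -0.14, -0.02 and -0.24 on these arrays with 53.7%, 59.1%, 51.5% and 60.7% of them lower. The anti-IgM+CpG values of the mitosis genes lay near those of all genes. They average 2 arrays that lay far apart, with mitosis medians of 1.08 on outlying replicate 1 and -0.85 on replicate 2, and describe neither. Between the Ambion arrays, 1 per group, the median difference of the mitosis genes from media was -2.30, -2.39, -2.44 and -2.61. Of the 45 genes, 45, 45, 44 and 44 were lower, where all genes had medians of -0.23, -0.30, -0.23 and -0.31. Fitted without the anti-IgM+CpG group, 28 genes fell with anti-IgM, 34 with CpG and 36 with PL2-3 when the replicate number was a block, and 29, 34 and 35 with the labelling kit in its place. Of all genes, 24.8%, 35.5% and 31.8% were called in either direction in the blocked fit. These shares hold rises as well as falls, so they are not shares of falls alone. The shares in the fit with the labelling kit are not given here.

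**Figure D2:**
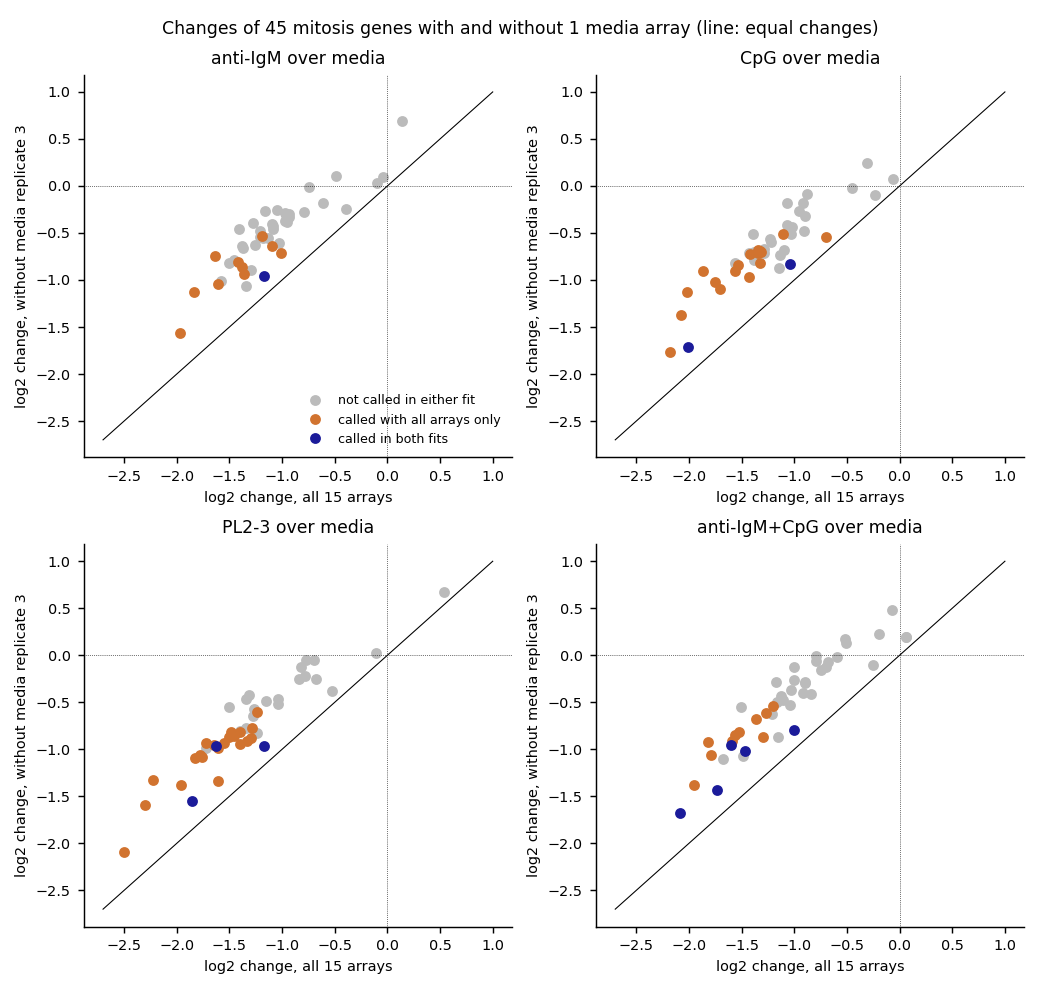
Each point is 1 of the 45 genes, with its log2 change from media fitted on all 15 arrays on the horizontal axis and without media replicate 3 on the vertical axis, for anti-IgM, CpG, PL2-3 and anti-IgM+CpG. All points lie above the line of equal changes, and the dark blue points, called in both fits, number 1, 2, 3 and 5.

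The promoters of the mitosis genes share 2 short elements. RefSeq sequences of GRCm38.p6 from 250 bases before to 50 after a gene's start were found for 38 of the 46 genes, Ccnb1 among them, in 41 entries. The CHR element TTTGAA, read on both strands, was present in 31 of the 41 entries (75.6%), compared with 17.9% of all 32851 promoters and 12.5% of the promoters of tested genes. CCAAT, on both strands, was present in 34 (82.9%), compared with 37.4% and 37.2%, and both elements in 29 (70.7%), compared with 6.95% and 4.78%. Neither element contains the other. A match describes the letters in the window and is not a measured binding site. The stretches from 120 bases before the start to 30 bases after it are printed for 6 genes whose signals are described below, 5 with matches and Birc5 as an example without any, on the gene's own strand and with either element in capitals.
Cenpa (chr5:30666766-30666915, plus strand): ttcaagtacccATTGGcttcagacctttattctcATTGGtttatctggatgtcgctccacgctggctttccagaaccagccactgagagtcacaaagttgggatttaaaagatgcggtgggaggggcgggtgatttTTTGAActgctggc
Kif22 (chr7:127042391-127042540, minus strand): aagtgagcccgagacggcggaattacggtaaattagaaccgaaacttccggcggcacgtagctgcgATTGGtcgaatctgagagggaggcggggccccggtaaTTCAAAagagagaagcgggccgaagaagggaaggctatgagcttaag
Kif23 (chr9:61946770-61946919, minus strand): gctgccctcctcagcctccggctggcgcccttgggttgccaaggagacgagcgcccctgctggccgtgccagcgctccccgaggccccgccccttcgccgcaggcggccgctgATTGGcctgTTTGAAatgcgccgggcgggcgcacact
Racgap1 (chr15:99651627-99651776, minus strand): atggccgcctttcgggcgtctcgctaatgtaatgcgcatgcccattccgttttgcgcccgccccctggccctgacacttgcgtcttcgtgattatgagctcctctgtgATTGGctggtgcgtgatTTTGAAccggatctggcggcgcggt
Mki67 (chr7:135716350-135716499, minus strand): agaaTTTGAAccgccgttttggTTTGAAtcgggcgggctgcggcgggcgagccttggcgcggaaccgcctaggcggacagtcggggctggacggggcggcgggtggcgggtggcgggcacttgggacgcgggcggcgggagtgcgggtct
Birc5 (chr11:117849117-117849266, plus strand): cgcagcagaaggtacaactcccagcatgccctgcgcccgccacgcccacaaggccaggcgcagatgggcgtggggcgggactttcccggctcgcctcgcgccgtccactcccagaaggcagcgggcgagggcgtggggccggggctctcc

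Among the 9 genes of entry into mitosis, 1 fell with anti-IgM (9.32% of all genes), 4 with CpG (16.9%), 3 with PL2-3 (13.5%) and 1 with anti-IgM+CpG (24.8%). A role count near or below its share of all genes is not a result about that role. All 9 changes were below 0 in each comparison, with medians of -1.03, -1.34, -1.35 and -1.01. Cdc25b, a phosphatase that activates CDK1, was chosen for display after its values were seen. Its signals were 1878, 1919.6 and 1588 with anti-IgM, 1409, 2012 and 1452 with CpG, 1459.8, 1263 and 1192 with PL2-3, and 2895, 1345 and 1418 with anti-IgM+CpG, against 2933, 2652 and 9282 in media. Every array of the first 3 groups was below every media array, and anti-IgM+CpG replicate 1 reached the media range. Cdc25b fell by 1.19 ± 0.38 log2 units with anti-IgM (SE, n = 3 arrays per group, limma adjusted p = 0.0359), and its changes were -1.34 with CpG (0.0131), -1.63 with PL2-3 (0.00435) and -1.20 with anti-IgM+CpG (0.0175), all called. Without media replicate 3 its changes were -0.53, -0.68, -0.97 and -0.54, with the PL2-3 value still called (0.0218).

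Ccna2, which encodes cyclin A2 and had the highest mean signal of the entry genes, was not called in any comparison. It gave 2128, 3356 and 1584 with anti-IgM, 2349, 2265 and 1469.7 with CpG, 2471, 2471 and 1730.0 with PL2-3, and 6179, 1191 and 1354 with anti-IgM+CpG, against 3034, 2379 and 7595 in media. Its groups overlapped with media except for CpG, and its changes lay between -0.91 and -0.74 with an SE of 0.50. The kinase gene Plk1 fell with CpG (-1.70 ± 0.51, limma adjusted p = 0.0194) and PL2-3 (-1.46 ± 0.51, 0.0469), and Ccnb2, which encodes cyclin B2, fell with CpG (-1.42 ± 0.47, 0.0314). Foxm1, a transcription factor of G2 and M phase genes, had the lowest ratio of media replicate 3 to the other media arrays. Its signals were 876, 965 and 715 with CpG, against 1399, 1541 and 1314 in media, without overlap, and it fell by 0.69 ± 0.23 (limma adjusted p = 0.0283). Another probe set of Foxm1 changed in the opposite direction with CpG, by 0.36.

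Among the 9 genes of the spindle checkpoint and anaphase, 1 fell with anti-IgM (9.32% of all genes), 1 with CpG (16.9%), 3 with PL2-3 (13.5%) and 2 with anti-IgM+CpG (24.8%). Their medians were -1.16, -1.10, -1.31 and -1.03. Bub1b, the checkpoint protein BUBR1, fell with anti-IgM (-1.36 ± 0.44, limma adjusted p = 0.0380), PL2-3 (-1.33, 0.0329) and anti-IgM+CpG (-1.29, 0.0253). Ube2c, the ubiquitin-conjugating enzyme of the anaphase-promoting complex, fell with PL2-3 (-1.76 ± 0.55, limma adjusted p = 0.0265) and anti-IgM+CpG (-1.59 ± 0.55, 0.0292). Espl1, the protease separase, fell with CpG (-1.56 ± 0.46, limma adjusted p = 0.0166), and the kinase Ttk with PL2-3 (-1.61 ± 0.48, 0.0212).

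Bub3, a checkpoint protein with the highest mean signal of this group, showed little difference between groups. Its signals were 19756, 14365 and 19290.1 with anti-IgM, 16923, 14303 and 17130.1 with CpG, 18539, 14144 and 20513 with PL2-3, and 24488, 16498 and 18832 with anti-IgM+CpG, against 17610.4, 15711 and 24258 in media. All groups overlapped, its changes from media were -0.10, -0.23, -0.11 and 0.06 with an SE of 0.19, and its 5 probe sets lay on both sides of 0. Pttg1, which encodes securin, was another member without a call, at 23039, 12779.8 and 17114 with anti-IgM and 9929, 7300.2 and 10229.8 with PL2-3, against 14456, 8649.8 and 30323 in media. Its changes were 0.14 and -0.78, both with an SE of 0.46.

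The next 7 genes are those of the centromere and the chromosomal passenger complex, which holds Aurora B at centromeres. Of these, 3 fell with anti-IgM (9.32% of all genes), 6 with CpG (16.9%), 4 with PL2-3 (13.5%) and 2 with anti-IgM+CpG (24.8%). All changes were below 0, with medians of -1.38, -1.34, -1.51 and -1.04. Cenpa, the histone H3 variant that marks centromeres, was high on all 3 media arrays. Its signals were 4904, 4402 and 3996 with anti-IgM, 2802, 2379 and 1537 with CpG, 2935, 2379 and 2081 with PL2-3, and 6066, 1815 and 1679 with anti-IgM+CpG, against 8019, 8565 and 10619.7 in media. No stimulated array reached a media array. Cenpa fell by 1.01 ± 0.33 with anti-IgM (limma adjusted p = 0.0420), and its changes were -2.01 with CpG (0.000287), -1.85 with PL2-3 (0.000684) and -1.73 with anti-IgM+CpG (0.000615), all called. Without media replicate 3 the changes were -0.71 (0.232), -1.71 (0.00297), -1.55 (0.00685) and -1.43 (0.00611). A dim probe set of Cenpa changed by 0.43 with PL2-3, opposite to the brightest.

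Among the passenger proteins, Incenp, the scaffold of the complex, gave 3002, 2824 and 4607 with anti-IgM, 3279, 3423 and 4332 with CpG, 2987, 2563 and 3428 with PL2-3, and 12042, 3825 and 4007 with anti-IgM+CpG, against 5561, 6027 and 23038 in media. The anti-IgM, CpG and PL2-3 arrays were all below the media arrays, and anti-IgM+CpG replicate 1 was above media replicates 1 and 2. It fell with anti-IgM (-1.42 ± 0.43, limma adjusted p = 0.0276), CpG (-1.31, 0.0281) and PL2-3 (-1.60, 0.0105), but was not called with anti-IgM+CpG (-0.68, 0.211). The probe set used for Incenp is of a type that can bind related transcripts. On the next brightest, anti-IgM read 1331, 1184 and 1197, against 1501, 1003 and 3620 in media, with overlap. Aurkb, the kinase Aurora B, gave 513, 575 and 531 with anti-IgM, 373, 798 and 582 with CpG, 498, 809.7 and 477 with PL2-3, and 1437, 496 and 462 with anti-IgM+CpG, against 935, 1338 and 2775 in media. Its anti-IgM, CpG and PL2-3 signals did not overlap with media, and it fell with these 3 stimuli, with changes of -1.38, -1.33 and -1.29 (SE 0.43, limma adjusted p = 0.0327, 0.0274 and 0.0357). Birc5, the passenger subunit survivin, gave 1984, 2130.3 and 1062 with CpG, against 3614, 4192 and 15688 in media, and 7849, 1093 and 1096 with anti-IgM+CpG. It fell with CpG alone among the 4 comparisons (-1.86 ± 0.62, limma adjusted p = 0.0313), although its changes in the others were -1.41 to -1.51 and the difference between stimuli was not called.

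Spindle motors and microtubule binders held the members that fell furthest. Of 10 genes, 3 fell with anti-IgM (9.32% of all genes), 5 with CpG (16.9%), 6 with PL2-3 (13.5%) and 5 with anti-IgM+CpG (24.8%). Their medians were -1.21, -1.23, -1.49 and -1.38. Kif20a, a kinesin that carries the passenger complex to the spindle midzone, was a dim gene with 69.6, 104 and 465 with anti-IgM, 225, 77.4 and 124 with CpG, 48.2, 138 and 103 with PL2-3, and 759.7, 249.9 and 67.2 with anti-IgM+CpG, against 512, 799 and 1574 in media. The first 3 groups lay below all media arrays. Kif20a fell by 1.97 ± 0.65 with anti-IgM (limma adjusted p = 0.0425), with CpG (-2.18, 0.0179) and with PL2-3 (-2.50, 0.00910), and its change with anti-IgM+CpG was -1.48 (0.0768). With signals near the pseudocount, these sizes depend on it. Outside media, Kif20a reached the array median only on anti-IgM replicate 3 and anti-IgM+CpG replicate 1. It passed the filter on low signals through the media arrays, so its falls from media cannot be separated from that filter.

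Kif22, a chromosome-arm kinesin and the brightest of this group, had the highest ratio of media replicate 3 to the other media arrays among the 45 genes. It gave 3316, 2475 and 2153 with anti-IgM, 1839.6, 1722 and 2414 with CpG, 1441, 1868 and 1851 with PL2-3, and 5769, 1458 and 1386 with anti-IgM+CpG, against 5668, 3773 and 25941 in media. The anti-IgM, CpG and PL2-3 arrays were below all media arrays. Kif22 fell in the 4 comparisons, with changes of -1.63, -2.02, -2.22 and -1.82 in the order given (SE 0.55, limma adjusted p = 0.0493, 0.0113, 0.00714 and 0.0151), and no call was kept without media replicate 3. These values are from a probe set whose type can bind related transcripts. On the next brightest, the anti-IgM, CpG and PL2-3 arrays were also below media. On the dimmest, CpG read 786, 343 and 198, against 717, 652 and 1124 in media, with overlap. Kif2c, a kinesin that depolymerises microtubules, gave 219, 618 and 383 with PL2-3, against 1560, 1097 and 5794 in media, and fell in all 4 comparisons, with changes from -2.30 to -1.53 (SE 0.58), on a probe set whose type can bind related transcripts. Its probe sets disagreed: the brightest of the others changed by 0.04 with CpG and 0.04 with PL2-3, and the next by -1.24 and -1.04.

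Kif23, a kinesin of the central spindle, gave 1132, 1289 and 633 with anti-IgM, 1077, 1838 and 662 with CpG, 1185, 1455 and 616 with PL2-3, and 1707, 256 and 312 with anti-IgM+CpG, against 2116, 2645 and 2843 in media. No stimulated array reached the media range, and the lowest 2 were anti-IgM+CpG arrays. It fell with anti-IgM+CpG (-2.08 ± 0.45, limma adjusted p = 0.00165) and was not called with anti-IgM (-1.30, 0.0554), CpG (-1.14, 0.0688) or PL2-3 (-1.24, 0.0556). Hmmr, a spindle and hyaluronan-binding protein, gave 1107, 787 and 527 with CpG, 628, 1211 and 505 with PL2-3, and 2238, 386 and 458 with anti-IgM+CpG, against 1875, 2233 and 5177 in media. It fell in these 3 comparisons, with changes of -1.76, -1.83 and -1.79 (SE 0.54, limma adjusted p = 0.0208, 0.0185 and 0.0137), with the CpG and PL2-3 arrays below all media arrays. The next brightest probe set of Hmmr was also lower with CpG and PL2-3. A dimmer probe set gave 581, 364 and 304 with CpG and 436, 531 and 358 with PL2-3, against 495, 326 and 290 in media. Tpx2, an activator of Aurora A, went against the others on its brightest probe set, with 2640, 3430 and 2562 with PL2-3, against 1461, 2173 and 2302 in media, without overlap, and a change of 0.54 ± 0.26 that was not called (0.141). Its 4 probe sets disagreed, and the lowest change among them with PL2-3 was -1.27.

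**Figure D3:**
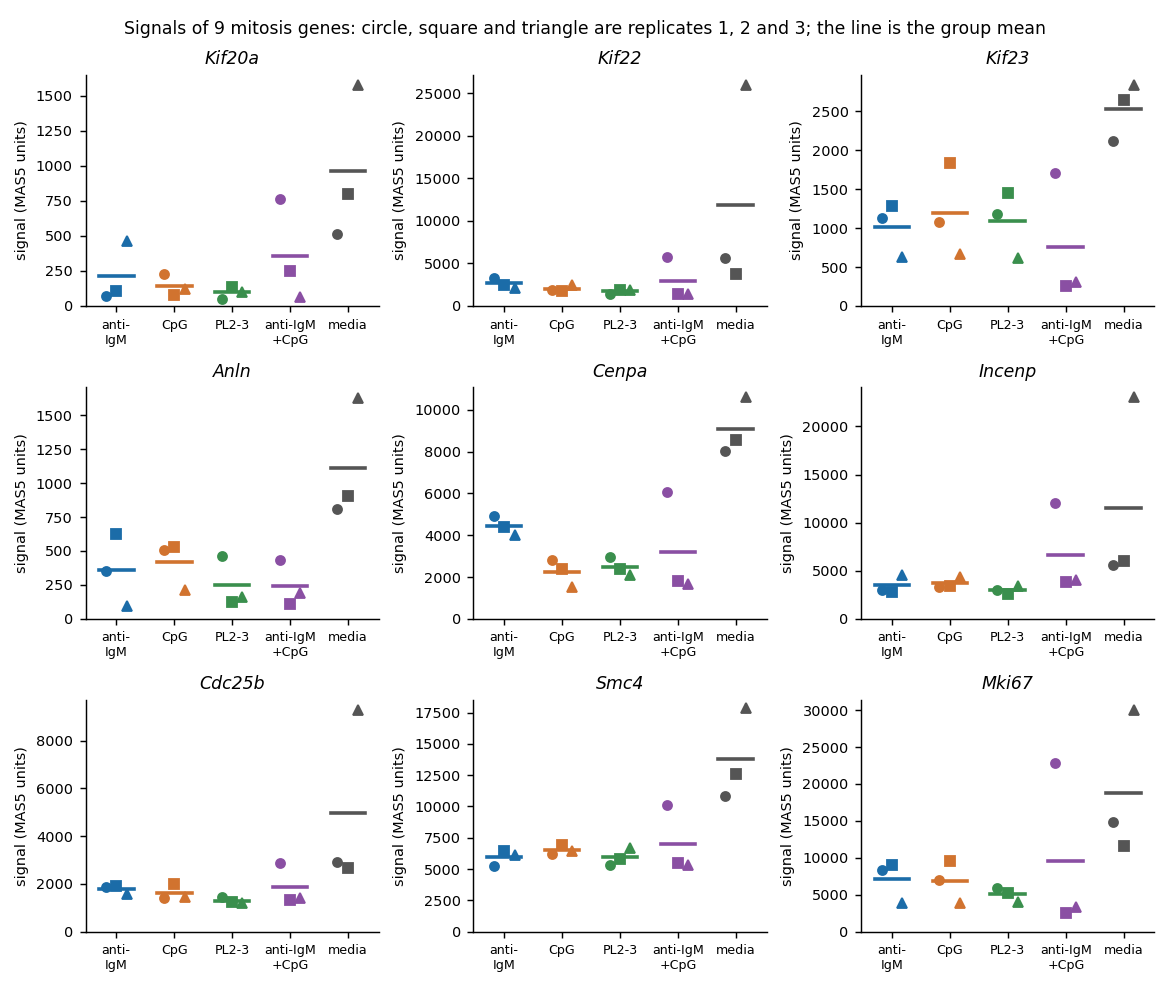
Signals (linear MAS5 units, vertical axes from 0) of 9 mitosis genes are plotted for the 3 arrays of each group, with a line at the group mean. In Kif22, Incenp and Cdc25b the media triangle (replicate 3) stands alone at 25941, 23038 and 9282, while in Cenpa and Kif23 all 3 media points lie above all stimulated points.

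The 3 cytokinesis genes had 1 that fell with anti-IgM (9.32% of all genes), none with CpG (16.9%), 2 with PL2-3 (13.5%) and 1 with anti-IgM+CpG (24.8%). Their medians were -1.25, -1.29, -1.55 and -0.91. Anln, which encodes anillin of the contractile ring, gave 352, 628 and 97.1 with anti-IgM, 511, 526 and 213 with CpG, 461, 123 and 163 with PL2-3, and 431, 112 and 191 with anti-IgM+CpG, against 809.8, 903 and 1629 in media. No stimulated array reached a media array. Anln fell with anti-IgM (-1.61 ± 0.53, limma adjusted p = 0.0420), PL2-3 (-1.96, 0.0115) and anti-IgM+CpG (-1.96, 0.00732), and its change with CpG was -1.29 (0.0770). A dimmer probe set of Anln changed by 0.30 to 0.37 with CpG, PL2-3 and anti-IgM+CpG. Racgap1, the partner of KIF23 in centralspindlin, gave 1453, 1871 and 868 with anti-IgM, 987, 1696 and 829.9 with CpG, 1316, 1524 and 677 with PL2-3, and 2358, 824 and 911 with anti-IgM+CpG, against 1999.7, 1912 and 3431 in media. It was not called, with changes of -0.79 to -1.04 and an SE of 0.38, although its anti-IgM, CpG and PL2-3 signals were all below media. Ect2, the RhoA exchange factor of cytokinesis, fell with PL2-3 (-1.55 ± 0.49, limma adjusted p = 0.0276).

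Among the 7 genes of chromosome structure, with the proliferation marker Mki67, 2 fell with anti-IgM (9.32% of all genes), 3 with CpG (16.9%), 6 with PL2-3 (13.5%) and 4 with anti-IgM+CpG (24.8%). Their medians were -1.09, -1.04, -1.40 and -1.01. Smc4, the ATPase core of condensin, was singled out after its values were seen because its calls held in each comparison without media replicate 3. It gave 5247, 6452 and 6154 with anti-IgM, 6174, 6912 and 6457 with CpG, 5319, 5829.6 and 6705 with PL2-3, and 10109, 5479 and 5363 with anti-IgM+CpG, against 10872, 12608 and 17853 in media. On this probe set, the brightest of Smc4, all 12 stimulated arrays were below all 3 media arrays. The next brightest read 20104, 22688 and 7726 in media, and anti-IgM replicate 2 (9028) was above media replicate 3. On a dimmer probe set CpG replicate 1 (1321) was also above media replicate 3 (989). Media replicate 3 was the lowest media array on both. Smc4 fell with anti-IgM, CpG, PL2-3 and anti-IgM+CpG, with changes of -1.17, -1.04, -1.18 and -1.01 (SE 0.23, limma adjusted p = 0.00178, 0.00243, 0.00117 and 0.00213), and of -0.96, -0.83, -0.96 and -0.79 without media replicate 3 (0.0150, 0.0211, 0.0106 and 0.0186).

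Its condensin partners behaved less alike. Ncapd2 fell in all 4 comparisons, with changes of -1.09, -1.43, -1.40 and -1.47 (SE 0.37), and without media replicate 3 only the value with anti-IgM+CpG was called (-1.01, limma adjusted p = 0.0404). Ncaph, the kleisin of condensin, gave 2988, 3504 and 1977 with anti-IgM, 2764, 1846 and 1756 with CpG, 2471, 3180 and 1371 with PL2-3, and 3185, 1244 and 1250.0 with anti-IgM+CpG, against 4416, 3569 and 9566 in media. On this probe set, whose type can bind related transcripts, the groups of Ncaph did not overlap with media. It fell with CpG (-1.33 ± 0.40, limma adjusted p = 0.0181), PL2-3 (-1.24, 0.0290) and anti-IgM+CpG (-1.60, 0.00422). On the other probe set of Ncaph, only PL2-3 did not overlap with media. There anti-IgM replicate 2 (1519), CpG replicate 2 (1427) and anti-IgM+CpG replicate 1 (2194) were above media replicate 2 (1406). Smc2, the partner of SMC4, was not called, with changes of -0.61, -0.45, -0.68 and -0.20 and an SE of 0.27.

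Mki67, which encodes Ki-67, the coat protein of mitotic chromosomes used as a marker of dividing cells, was bright in every group. It gave 8319, 9092 and 3832 with anti-IgM, 7007, 9524 and 3859 with CpG, 5857, 5199 and 4051 with PL2-3, and 22855, 2472 and 3397 with anti-IgM+CpG, against 14854, 11563 and 29953 in media. The arrays of the first 3 groups were below all media arrays, while anti-IgM+CpG held both the lowest and the second highest of the 15 signals. Mki67 fell with PL2-3 (-1.78 ± 0.59, limma adjusted p = 0.0350) and anti-IgM+CpG (-1.56, 0.0429), and its changes with anti-IgM (-1.37, 0.119) and CpG (-1.43, 0.0789) were not called. Top2a, the topoisomerase that untangles sister chromatids, fell with PL2-3 (-1.40 ± 0.48, limma adjusted p = 0.0436), as did the condensin subunit Ncapg (-1.72 ± 0.60, 0.0458).

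Probe sets of the same gene mostly pointed the same way. Of 27 members with more than 1 probe set past the filter, all probe sets were below media in 23 with anti-IgM, 21 with CpG, 20 with PL2-3 and 24 with anti-IgM+CpG. Counting the 90 probe sets past the filter each on its own, 9, 28, 32 and 28 fell and 0 rose, where 6.67%, 13.5%, 10.9% and 24.8% of all probe sets fell and 8.11%, 11.0%, 9.99% and 14.5% rose. At an unadjusted limma p under 0.05, 0 of the 45 genes were higher than media in any of the 4 comparisons, where 14.6%, 16.3%, 16.1% and 19.0% of all genes were higher, and 32, 35, 36 and 27 were lower, where 16.9%, 24.0%, 20.5% and 30.8% of all genes were.

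Between stimuli, none of the 45 genes was called in any of the 6 comparisons. The median log2 difference was -0.26 for PL2-3 against anti-IgM, -0.13 for PL2-3 against CpG, -0.24 for PL2-3 against anti-IgM+CpG, 0.05 for anti-IgM+CpG against anti-IgM, 0.17 for anti-IgM+CpG against CpG, and -0.10 for CpG against anti-IgM. Over all genes 0.350%, 1.60%, 0.517%, 5.36%, 2.61% and 3.84% fell, and 0.342%, 1.60%, 1.32%, 3.72%, 1.91% and 2.57% rose. At an unadjusted limma p under 0.05 there were 2, 1, 1, 1, 0 and 1 of the 45 genes in either direction, below the shares of all genes, which were 7.18%, 13.3%, 20.4%, 25.8%, 19.2% and 16.9%.

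Cenpa was lower with CpG and PL2-3 than with anti-IgM on every array. Its difference was -0.998 for CpG against anti-IgM (limma adjusted p = 0.0949) and -0.84 for PL2-3 against anti-IgM (0.544). Without both outlying arrays the same differences were called, at limma adjusted p of 0.000893 and 0.0155 (5.41% and 0.813% of all genes fell). In that fit 7 genes were lower with anti-IgM+CpG than with anti-IgM (6.04% of all genes): Cenpa, Birc5, Kif22, Kif23, Mki67, Ncaph and Hmmr. Kif23 was also lower with anti-IgM+CpG than with CpG (-1.60 ± 0.31, limma adjusted p = 0.00735, 2.99% of all genes), and higher with PL2-3 than with anti-IgM+CpG (1.50 ± 0.31, 0.0224, 1.72% of all genes). Both arrays were left out after seeing the data, and they are those with the highest mitosis medians. The calls in that fit are therefore not independent of the values tested. Leaving out the high anti-IgM+CpG array lowers that group in advance. With all arrays, anti-IgM+CpG against anti-IgM gave no call.

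Genes of neighbouring parts of the cell cycle were read in the same fit. Of 73 other mitosis genes tested, 2 rose and 8 fell with anti-IgM, 7 and 11 with CpG, 3 and 16 with PL2-3, and 7 and 19 with anti-IgM+CpG, with medians of -0.63, -0.69, -0.74 and -0.38. The falls can be set against 9.32%, 16.9%, 13.5% and 24.8% of all genes and the rises against 10.1%, 13.1%, 12.4% and 17.2%. Cdc25a, a phosphatase that acts at G1-S and G2-M, rose with CpG (1.28 ± 0.22), PL2-3 (1.14 ± 0.22) and anti-IgM+CpG (1.16 ± 0.22), and the CDK1-inhibiting kinase Wee1 rose with CpG (1.01 ± 0.30) and PL2-3 (1.35 ± 0.30). The spindle motor Kifc1 fell with anti-IgM (-2.04 ± 0.50) and CpG (-2.18 ± 0.50), and the kinetochore gene Nuf2 with PL2-3 (-2.30 ± 0.62). Of 42 genes of DNA replication and S phase, 1 rose and 8 fell with anti-IgM, 2 and 8 with CpG, 2 and 9 with PL2-3, and 5 and 10 with anti-IgM+CpG, with medians of -0.53, -0.22, -0.51 and -0.26. Pcna, the sliding clamp of DNA polymerases, rose with anti-IgM (0.47 ± 0.14), CpG (0.57 ± 0.14) and PL2-3 (0.51 ± 0.14), while Rrm2, a subunit of ribonucleotide reductase, fell in the 4 comparisons, with changes of -1.96, -2.15, -2.25 and -2.35. Without media replicate 3 the replication list gave 1 rise and 1 fall with anti-IgM, 4 and 4 with CpG, 2 and 4 with PL2-3 and 5 and 6 with anti-IgM+CpG, and the other mitosis genes 1 and 1, 6 and 3, 2 and 4, and 5 and 9. In that fit 5.36%, 11.1%, 8.94% and 18.2% of all genes fell and 7.19%, 10.7%, 9.79% and 14.8% rose, and the falls in both lists were below the share of all genes, apart from the replication genes with PL2-3, which were near it.

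Markers of the B cell and of other cell types were read on the same arrays. All 7 B cell markers measured were above the array median on all 15 arrays, and Cd79a, a chain of the B cell receptor, was lowest at 6485 on anti-IgM+CpG replicate 2 and highest at 80259 on media replicate 2. Of 10 erythroid markers measured, 8 were highest of all 15 arrays on media replicate 3, the exceptions being Hba-a1 and Car1, and all 10 were higher on anti-IgM+CpG replicate 1 than on replicates 2 and 3. Their summed signal was 40466 to 74620 with anti-IgM, 34223 to 64088 with CpG, 35792 to 51410 with PL2-3 and 33779 to 111860 with anti-IgM+CpG, against 87528 to 166801 in media. Media replicate 3 was the highest and anti-IgM+CpG replicate 1 the next. Of the 9 tested, 3 fell with anti-IgM (9.32% of all genes), 7 with CpG (16.9%), 6 with PL2-3 (13.5%) and 8 with anti-IgM+CpG (24.8%). Alas2 and Slc4a1 made up most of the sum. Klf1, a transcription factor of red cell precursors, gave 1500.1, 2307 and 994 with anti-IgM, 1201, 2083 and 548 with CpG, 1696, 1689 and 687 with PL2-3, and 2476, 576 and 917 with anti-IgM+CpG, against 2954, 2635 and 6155 in media.

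Of 9 myeloid markers, 8 were highest on media replicate 3 and 7 were higher on anti-IgM+CpG replicate 1 than on replicates 2 and 3, with Csf1r the exception in the first count and Csf1r and Cd14 in the other. Their summed signal, carried on the high arrays mostly by S100a8 and S100a9, was 55311 to 95835 with anti-IgM, 47537 to 92034 with CpG, 49581 to 80831 with PL2-3 and 13147 to 147479 with anti-IgM+CpG, against 115127 to 246032 in media. Mpo, the peroxidase of granulocyte precursors, gave 2282, 290.2 and 462 with anti-IgM+CpG, against 1857, 1423 and 7815 in media, while Csf1r, the receptor of macrophage colony-stimulating factor, gave 2750.5, 1763 and 2948 with anti-IgM+CpG, against 26139.9, 24661 and 19153 in media. Of the 9, 2, 3, 1 and 7 fell with anti-IgM, CpG, PL2-3 and anti-IgM+CpG, where 9.32%, 16.9%, 13.5% and 24.8% of all genes did. T cell markers summed to 1585 to 4809 over the stimulated arrays, against 6528 to 7823 in media, and NK cell markers to 1653 to 6427, against 5087 to 6769. Plasma cell markers summed to 38998 to 148093 over the stimulated arrays, against 55210 to 137270 in media, with anti-IgM+CpG replicate 1 highest and media replicate 3 next, and megakaryocyte markers to 1587 to 3083, against 3295 to 5676. B cell markers summed to 136500 to 297840, against 315402 to 501571 in media. Of the 7 B cell markers, 6, 3, 5 and 6 fell in the same order of comparisons, so falls were not confined to markers of other cells. None of these markers was at 0 on any array. Their part in the lower mitosis signals was not tested.

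**Figure D4:**
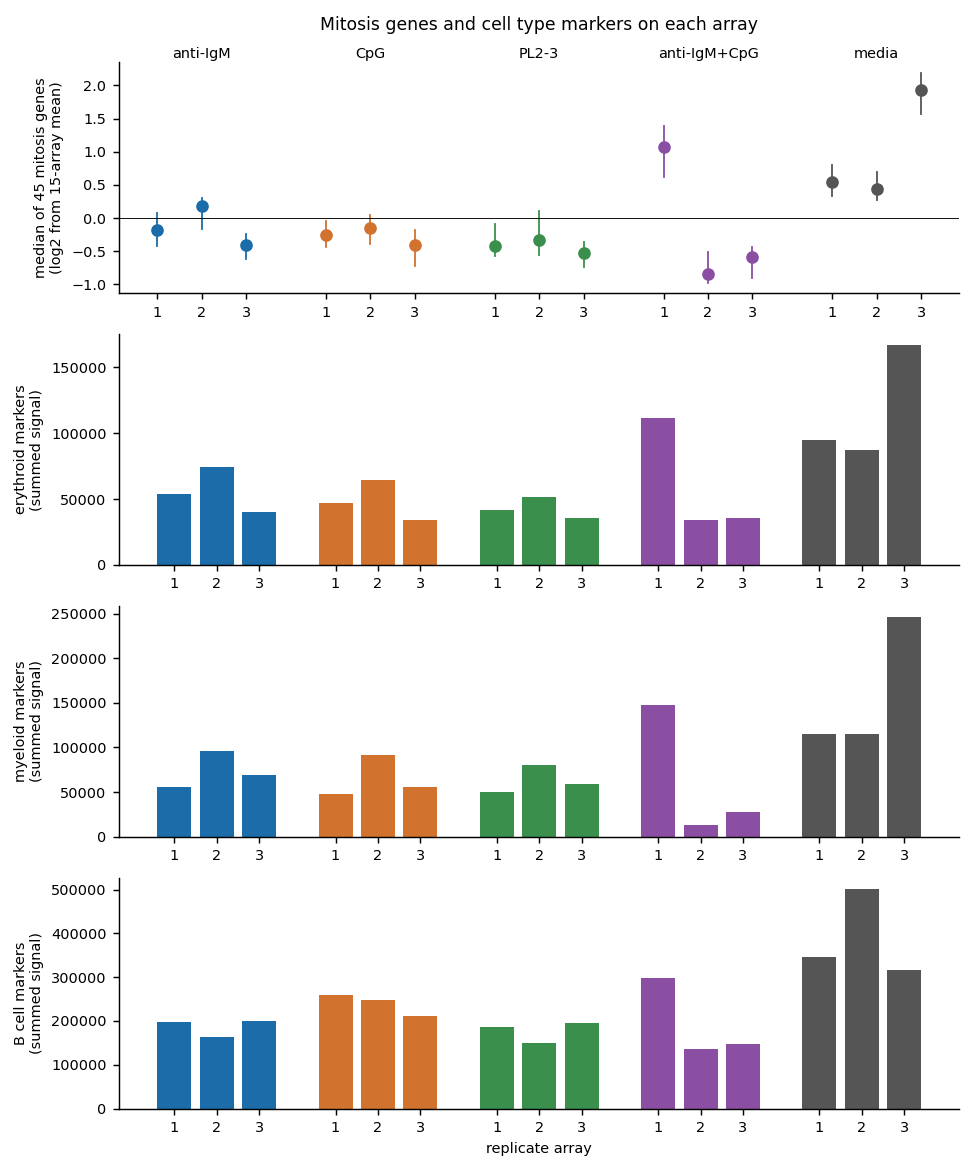
From top to bottom, the panels give for each array the median of the 45 mitosis genes (log2 from the 15-array mean, line from the first to the last quartile) and the summed signals of erythroid, myeloid and B cell markers. Anti-IgM+CpG replicate 1 and media replicate 3 are the highest in the first 3 panels, whereas the B cell sum is highest on media replicate 2.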

How the data were processed

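The authors deposited a linear intensity for each probe set, made with MAS5 per the submitters' processing notes; version and scaling target are not given in the sources used here. Array medians were 263 to 514. The number of arrays limits the precision. Control probe sets (64) and those with several gene symbols or none were left out, and each gene was represented by its brightest probe set. Genes reaching the median of an array on 3 or more arrays were tested. A pseudocount of 75.2, the 20th percentile over all arrays, was added before taking log2, which was fitted with limma 3.58.1 (lmFit, eBayes with trend) in R 4.3.3, with 5 groups and the labelling kit as terms over all 15 arrays and 9 residual degrees of freedom. Tests were two-sided, and p-values were Benjamini-Hochberg adjusted over 13160 genes within each comparison. With 3 arrays per group an exact permutation p cannot go below 0.1. The procedure was tested on simulated data.

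The mitosis genes, the other lists and the tests were chosen with earlier results of these data known. Values in every array are given, per the rule, for up to 6 called members with the largest falls in each comparison against media and for the brightest member of each role group. Cdc25b, Smc4, Foxm1, Pttg1, Tpx2 and the other members given values outside this rule were chosen after their values were seen. For anti-IgM+CpG group membership follows the titles, which name both agents, although no agent is entered as treatment. Alternatives added, namely leaving out both outlying arrays, using probe sets without an _s_at or _x_at ending, and fitting without the anti-IgM+CpG group, were chosen after seeing the data. Figures and promoter counts used Python 3.11.15, pandas 2.3.3 and matplotlib 3.10.9. Same-numbered arrays of media, anti-IgM, CpG and PL2-3 deviated together (correlation of deviations from group means over 0.1 in 18 of 18 pairs, and in 8 of 36 pairs of different number). Same-numbered pairs with anti-IgM+CpG did so in 0 of 12. The main fit did not pair arrays by number and took only the labelling kit as a term. Pairing entered only in the alternative fits with a replicate block. Replicate 3 of each group is the Ambion array, and the labels tie the numbers to nothing else.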

Additional observations from a re-analysis of the deposited data

How the results depend on the processing

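Counts of mitosis genes called depended on the processing. Leaving out 1 array gave 1 to 28 genes for anti-IgM against media, 2 to 34 for CpG, 3 to 35 for PL2-3 and 5 to 39 for anti-IgM+CpG, lowest without media replicate 3 (for anti-IgM also without anti-IgM replicate 1) and highest without anti-IgM+CpG replicate 1. The anti-IgM count of 11 became 2 without anti-IgM replicate 3, 5 without replicate 2, 7 without CpG replicate 1 or 2 and 6 without PL2-3 replicate 3. The CpG count of 19 became 4, 11 and 12 without CpG replicates 3, 1 and 2, the PL2-3 count of 24 became 10, 14 and 10 without its replicates 1, 2 and 3, and the anti-IgM+CpG count of 15 became 6 without its replicate 2 or 3 and 24 without media replicate 2. Between stimuli, leaving out 1 array gave 0 for PL2-3 against anti-IgM and against CpG, 0 to 2 for PL2-3 against anti-IgM+CpG and anti-IgM+CpG against anti-IgM, and 0 to 1 for anti-IgM+CpG against CpG and CpG against anti-IgM.

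For anti-IgM the count was 1 with arrays shifted to the same median or Enzo arrays only, 7 with no pseudocount, specific probe sets or without both outlying arrays, 4 with no filter, 2 with no labelling term and 6 with the mean of probe sets. CpG gave 8 with the same median and 2 with Enzo arrays. PL2-3 gave 4 with Enzo arrays and 14 with the mean of probe sets. Anti-IgM+CpG gave 9 with quantile normalization, 6 with the same median (4 fell and 2 rose), 2 with Enzo arrays and 30 without both outlying arrays. On the Enzo arrays 10.8%, 18.8%, 17.4% and 33.7% of all genes were called against media, so the 1, 2, 4 and 2 mitosis genes lie below that share. Without both outlying arrays, PL2-3 against anti-IgM, PL2-3 against anti-IgM+CpG, anti-IgM+CpG against CpG and CpG against anti-IgM gave 1 and anti-IgM+CpG against anti-IgM 7. The mean of probe sets gave 1 for anti-IgM+CpG against anti-IgM and against CpG and for CpG against anti-IgM, and Enzo arrays 1 for anti-IgM+CpG against CpG. The same median moved the median of all genes from -0.13 to 0.12 with anti-IgM and from -0.29 to 0.30 with anti-IgM+CpG, with CpG and PL2-3 at 0.15 and 0.09, and the share of rises among all calls from 52.1%, 43.7%, 47.8% and 40.9% to 77.1%, 74.6%, 64.7% and 79.2%, where quantile normalization gave 54.7%, 51.0%, 52.5% and 54.5%. The mitosis medians became -0.92, -0.93, -1.16 and -0.51. Actin-based labelling gave 12, 24, 29 and 13. The calls over all genes also change with the fit. Where a count in this section has no share of all genes beside it, its change cannot be read as particular to the mitosis genes.

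Of 24 results for genes named by size, the sign was kept in 657 of 659 values over 28 settings, and 134 lost the call. The exceptions were Kif2c on specific probe sets, at 0.0362 with CpG and 0.0405 with PL2-3. The 24 results were picked as the largest called falls, and the settings share most of their arrays. A kept sign was thus largely fixed in advance and is no separate support. A replicate block over all 5 groups gave 11, 20, 23 and 14 genes against media. Without the anti-IgM+CpG group, chosen after seeing the data, the count was 28 for anti-IgM, 34 for CpG, 1 for PL2-3 against anti-IgM (Cenpa) and 1 for CpG against anti-IgM (Cenpa) with a replicate block, and 29, 34, 0 and 1 (Cenpa) with the labelling kit. The block as such changed no other count by over 1.5 times. The causes of these changes were not tested.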
